A study of Mus musculus with 5 samples.

Results

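Endosomal Toll-like receptor (TLR) signalling was examined in follicular regulatory T (Tfr) cells, through the transcripts of 10 genes taken by symbol from the annotated rows of every abundance table. They were the nucleic acid sensors Tlr7 and Tlr9, the cell surface receptors Tlr1 and Tlr2, the chaperone gene Unc93b1, the adaptor genes Myd88 and Tirap, and the kinase genes Irak4, Irak1 and Irak3. All 10 symbols were found once each among 57186 annotated genes. Tfr cells are Foxp3-expressing CD4 T cells that restrain germinal centre responses, and these were sorted from spleen as live cells positive for CD4, Foxp3, CXCR5, PD-1 and ICOS. Every mouse had received imiquimod, and cells were taken 21 days after the treatment. The WT group, 3 libraries, came from mice with a green fluorescent reporter of Foxp3. The Cebpa_KO group, 2 libraries, came from mice whose floxed Cebpa alleles, coding for C/EBP alpha, are cut by a Cre expressed from Foxp3, so the deletion is restricted to cells that have expressed Foxp3 and the Foxp3 allele differs between the groups too. Each library pooled the cells of several mice, so the spread is that between pools. Libraries without imiquimod were not analysed here, so a response to imiquimod itself could not be measured.

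Imiquimod is a small molecule agonist of TLR7, which senses single-stranded RNA inside endosomes, while TLR9 senses unmethylated DNA in the same compartment. UNC93B1 carries these receptors out of the endoplasmic reticulum, and acid proteases cut them in the endosome before they signal. The ligand-bound receptor recruits MyD88, which assembles IRAK4 and IRAK1 and leads through TRAF6 to NF-kappa B and interferon regulatory factors. TLR2 pairs with TLR1 or TLR6 to sense bacterial lipoproteins at the surface, where TIRAP bridges it to MyD88. B cells, plasmacytoid dendritic cells and macrophages are the cells best known for these receptors, and T cells use MyD88 also below the IL-1 and IL-18 receptors.

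Values are TPM, a level per transcript length and per library total, scaled between libraries. Cebpa, the targeted gene, measured 12.9, 17.7 and 12.8 in WT against 0.317 and 0.550 in Cebpa_KO (log2 difference -3.42, limma, adjusted p = 0.00371). The 8 markers of Tfr and T cells were all present, with a summed TPM of 4029 to 4197 in WT and 2954 to 3011 in Cebpa_KO. Of these 6 fell in Cebpa_KO (limma, adjusted p under 0.05), where 9.82% of all genes fell. They were Foxp3, Cd3e, Cxcr5, Icos, Bcl6 and Ctla4, and Cd4 and Pdcd1 did not pass. Foxp3 was at 6.74 and 5.58 in Cebpa_KO against 83.0 to 107.3 in WT. Genes of the Y chromosome were expressed in the WT libraries and Xist in the Cebpa_KO libraries, so sex and genotype cannot be told apart, which bears on the X-linked Tlr7 and Irak1. WT replicate 3 had a summed level of 7 stress genes of 2829, near the 3820 and 4071 of Cebpa_KO and far above the 244 and 248 of the other WT libraries. The 11 B cell markers summed to 140 to 196 in WT, to 282 in Cebpa_KO replicate 1 and to 63.0 in Cebpa_KO replicate 2, and of these Pax5 stood at 0.520 or less everywhere. The 6 plasmacytoid dendritic cell markers summed to 51.1 to 58.7 in WT and 37.5 to 50.9 in Cebpa_KO, nearly all of it Pacsin1. Siglech was at 0.0206 or less in WT against 0.486 and 0.0402 in Cebpa_KO replicates 1 and 2. Klk1 was at 0.0866 or less in WT against 1.26 and 0.0874. Both were too low to be tested, and Ccr9, Cox6a2 and Cd300c overlapped between the groups. The other marker sums ranged in WT and Cebpa_KO from 129 to 192 and 116 to 237 for 11 macrophage markers, 4709 to 15389 and 4392 to 7987 for 7 plasma cell markers, 3.54 to 7.33 and 5.69 to 7.28 for 6 conventional dendritic cell markers, and 12.1 to 112.5 and 86.5 to 347 for 6 neutrophil markers. In pooled cells, fewer cells of a type and less RNA per cell cannot be told apart.

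Transcripts of the pathway were present in the Tfr libraries at very unequal levels, and no member passed the test between the genotypes. Which cells of the sorted pools gave them was not tested. Myd88 and Irak1 were the most abundant members, above 90.8% and 90.5% of the tested genes in mean TPM over the 5 libraries, and their WT ranges, 108 to 134 and 130 to 137, overlapped. Unc93b1, Tlr1 and Irak4 followed in that order with TPM that did not overlap in WT, although on the level from coverage described below Unc93b1 (34.0 to 50.8 in WT) and Tlr1 (31.0 to 40.2) overlapped. Tirap, Tlr2 and Tlr7 came next, and their WT ranges overlapped each other. Irak3 was near the limit of the filter, and Tlr9 was listed at 0 in all 3 WT libraries.

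The test covered 8 of the 10 members, those that reached a TPM of 1 in 2 or more libraries. Differences are Cebpa_KO minus WT in log2(scaled TPM + 1). By limma with Benjamini-Hochberg adjustment over 16254 genes, 0 of the 8 had an adjusted p under 0.05, where 19.7% of all tested genes had one. At an unadjusted p under 0.05 there were 3, Tlr2, Tirap and Myd88, against 37.6% of all genes. The groups did not overlap in 5 of the 8, Tlr2, Irak1 and Irak4 with lower and Myd88 and Tirap with higher values in Cebpa_KO, against 56.7% of all genes (28% lower and 28.7% higher). The median log2 difference of the 8 was -0.16, and that of all tested genes 0.01. These counts are near or under those of all genes, and the intervals below, rather than the missed threshold, say how large a difference the data still allow.

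**Figure D1:**
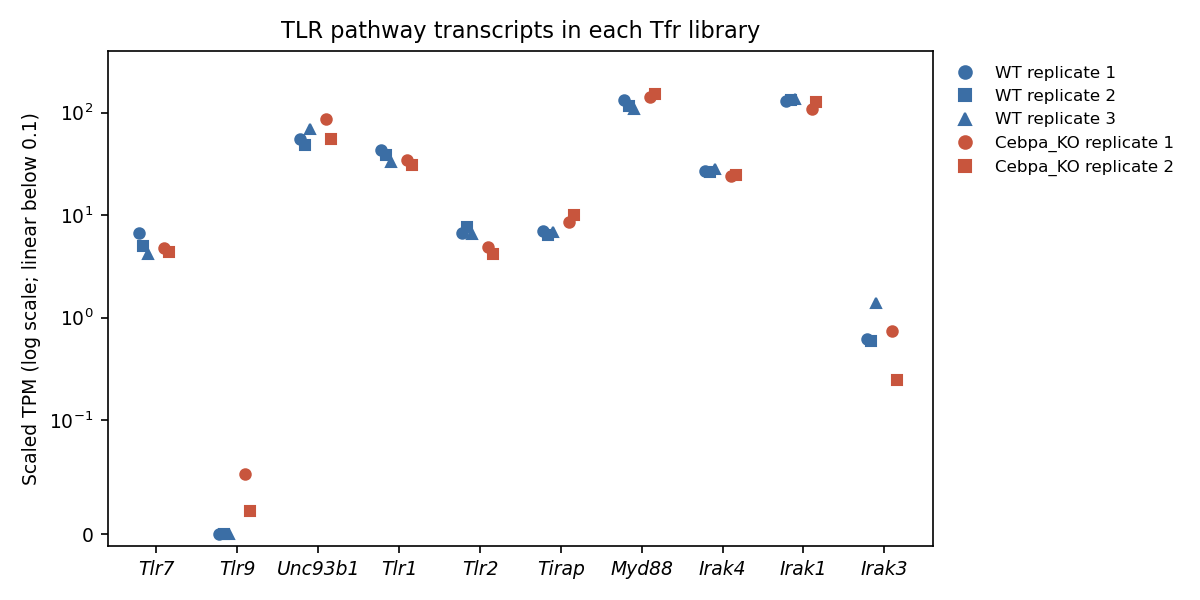
Scaled TPM (vertical axis, log scale, linear below 0.1) of each member, with 1 point per library, WT in blue and Cebpa_KO in red. Myd88 and Irak1 lie above 100 in every library, Tlr7 lies between 4.19 and 6.75, and Tlr9 lies at 0 in WT and at or under 0.0528 in Cebpa_KO.

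Tlr7 (ENSMUSG00000044583, mm39 chromosome X, 166087925 to 166113554), the receptor of imiquimod, was expressed at a low level in both groups. In WT its TPM was 6.75, 5.01 and 4.19, against 4.82 and 4.36 in Cebpa_KO, so the Cebpa_KO values lay inside the WT range. The log2 difference was -0.16 with a standard error of 0.21 and a 95% interval of -0.68 to 0.36 (limma, adjusted p = 0.615). WT replicate 1 was the highest library, and without it the log2 difference was 0.00020. On the same chromosome, 4 genes known to escape X inactivation had a summed TPM of 86.1 to 107.3 in WT and 140 to 148 in Cebpa_KO, and of these Eif2s3x and Ddx3x rose. Kdm5c and Kdm6a did not pass. The part of sex in the values of Tlr7 was not tested.

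The abundance of Tlr7 differed between the TPM and a level taken from read coverage. The tables give, beside the TPM, the mean read coverage of each gene. This coverage is assumed here to be the mean depth over all annotated exons of a gene. Putting that coverage on the TPM scale then gives a level per whole gene, equal to the TPM where 1 model covers the gene, as for Tlr2 at 100% in every library. For Tlr7 it was 22.1%, 26.8% and 21.4% of the TPM in WT and 21.5% and 21.2% in Cebpa_KO. Over all tested genes the median was 86.3% to 86.6%, and only 5.75% to 8.34% of the genes in a library had a smaller share than Tlr7. GENCODE M21, an annotation on an earlier build used here for lengths only, lists 6 Tlr7 models, 3 of them under 400 bases and 3 over 3000. The models behind the deposited TPM are not known, and the part of short models was not tested. Counted per whole gene, Tlr7 measured 1.49, 1.34 and 0.899 in WT against 1.04 and 0.927 in Cebpa_KO, below Tirap rather than close to it. On log2(level + 1) the difference between the genotypes was -0.16 (limma, adjusted p = 0.471).

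**Figure D2:**
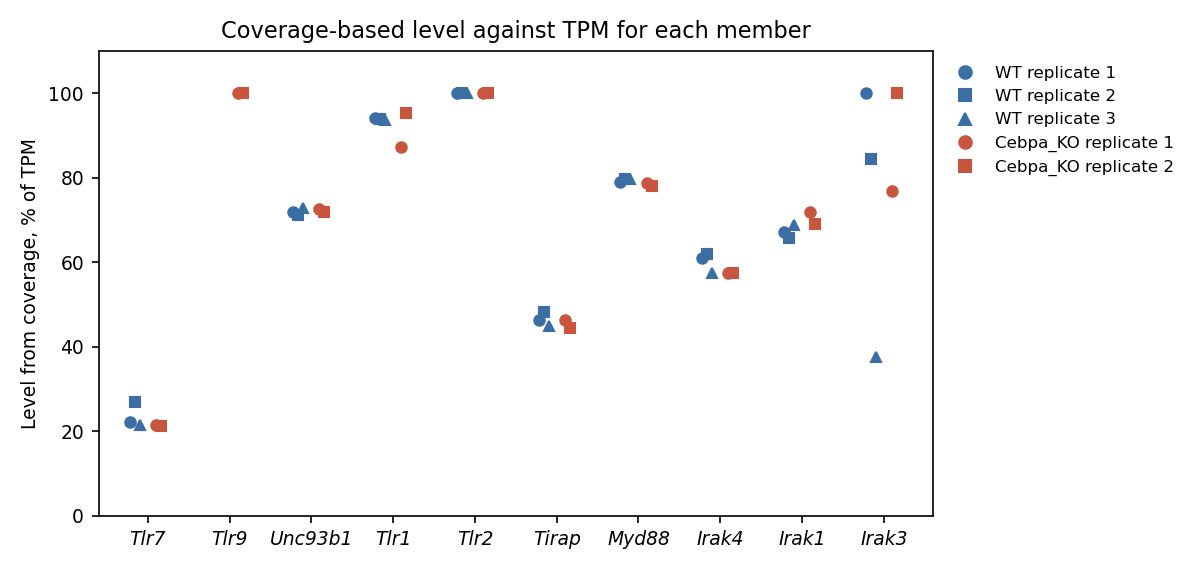
Level from coverage as a percentage of the TPM (vertical axis) for each member and library. Tlr7 lies at 21.2% to 26.8% in all libraries, Tlr2 at 100%, and Irak3 is scattered, with WT replicate 3 at 37.6%.

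Tlr9 (ENSMUSG00000045322, chromosome 9, 106099797 to 106104082), the DNA sensor, had no signal in any WT library. It was listed at 0.0528 and 0.0205 in Cebpa_KO replicates 1 and 2, which is below the filter, so no fold is given. The replicate with the larger value had the larger sums of B cell, plasma cell, macrophage, neutrophil and plasmacytoid dendritic cell markers. Its sum of conventional dendritic cell markers was the smaller, 5.69 against 7.28. Which cells gave this signal was not tested.

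Tlr2 (ENSMUSG00000027995, chromosome 3, 83743579 to 83749074), the shared chain of the lipoprotein receptors, had the largest difference among the tested members. It measured 6.66, 7.62 and 6.52 in WT against 4.84 and 4.16 in Cebpa_KO, so every WT library lay above both Cebpa_KO libraries. The mean was 6.94 ± 0.599 (SD, n = 3) in WT and 4.50 ± 0.483 (SD, n = 2) in Cebpa_KO, 1.54 times higher in WT. The log2 difference was -0.53 with a standard error of 0.14 and a 95% interval of -0.89 to -0.17 (limma, adjusted p = 0.0573). It passed under 3 of 15 alternatives, array weights (adjusted p = 0.0284), the level from coverage (0.0306) and no intensity trend (0.0445), and the adjusted p reached 0.275 in the others. With a pseudocount of 5 its log2 difference was -0.33. Tlr1 (ENSMUSG00000044827, chromosome 5, 65082022 to 65090906), a partner of TLR2, was the most abundant TLR measured. Its TPM was 42.7, 38.2 and 33.1 in WT against 34.5 and 30.5 in Cebpa_KO, and WT replicate 3 lay between the Cebpa_KO libraries. Its log2 difference was -0.22 with a 95% interval of -0.55 to 0.12 (limma, adjusted p = 0.30), and it was -0.13 without WT replicate 1 and -0.12 without Cebpa_KO replicate 2. Tlr6, the other partner, measured 5.01, 4.82 and 3.92 in WT against 3.50 and 3.40 in Cebpa_KO, without overlap (limma, log2 difference -0.32, adjusted p = 0.191). The 3 genes of the lipoprotein receptors thus all had negative differences, none of which passed. Of all 16254 tested genes, 7973 had a negative difference.

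Unc93b1 (ENSMUSG00000036908, chromosome 19, 3985186 to 3999340), the carrier of the endosomal receptors, was well expressed and had the largest standard error of the tested members. In WT its TPM was 55.8, 47.8 and 69.7, against 86.0 and 55.1 in Cebpa_KO. Cebpa_KO replicate 1 was the highest library and replicate 2 lay inside the WT range. The log2 difference was 0.27 with a standard error of 0.24 and a 95% interval of -0.34 to 0.87 (limma, adjusted p = 0.461). Without Cebpa_KO replicate 1 it was -0.046. The library order of Unc93b1 resembled that of the B cell marker sum, which was 141, 140 and 196 in WT and 282 and 63.0 in Cebpa_KO, with Cebpa_KO replicate 1 highest and WT replicate 3 next in both. Cebpa_KO replicate 2 broke the likeness, with the lowest marker sum and an Unc93b1 level above that of WT replicate 2. Much of that sum is Cd22, the largest marker in each WT library, at 56.7, 66.3 and 65.9. It was at 20.2 and 4.69 in Cebpa_KO (limma, adjusted p = 0.0311). Cd79a and Cd79b were also lowest in Cebpa_KO replicate 2, and the rest of the 11 markers were not. Pld4, an endolysosomal nuclease that degrades nucleic acid ligands of these receptors, measured 12.8, 9.26 and 15.7 in WT against 33.3 and 6.28 in Cebpa_KO, with its highest and lowest libraries those of the marker sum. Macrophage markers summed to 165, 129 and 192 in WT and 237 and 116 in Cebpa_KO, in the library order of Pld4. Neutrophil markers summed to 19.4, 12.1 and 112.5 in WT and 347 and 86.5 in Cebpa_KO. They too had Cebpa_KO replicate 1 highest and WT replicate 3 next. Plasma cell, plasmacytoid and conventional dendritic cell sums were highest in WT replicate 3. The likeness was thus not particular to B cell markers. The part of RNA from any of these cells was not tested.

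**Figure D3:**
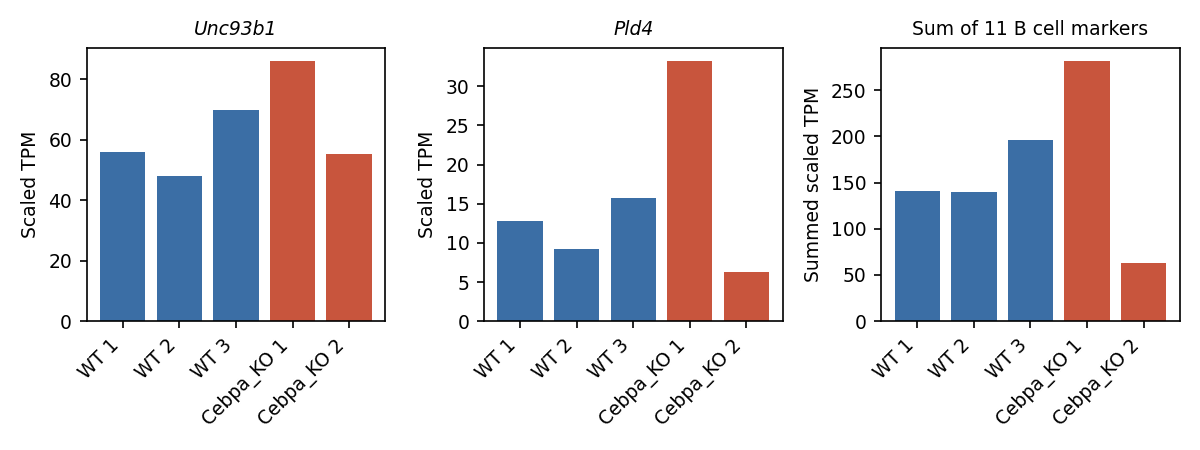
Scaled TPM of Unc93b1, of Pld4 and of the sum of 11 B cell markers in each library, WT in blue and Cebpa_KO in red. Cebpa_KO replicate 1 is the highest bar in all 3 panels, at 86.0, 33.3 and 282. The sums of macrophage and neutrophil markers, not drawn, were also highest in that library.

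The adaptors had higher values in Cebpa_KO, with differences that did not pass. Myd88 (ENSMUSG00000032508, chromosome 9, 119165000 to 119170477), the adaptor shared by TLR7, TLR9 and the IL-1 receptor family, measured 134, 116 and 108 in WT against 141 and 153 in Cebpa_KO. WT replicate 1 came close to the lower Cebpa_KO library, and the groups did not overlap. Its log2 difference was 0.30 with a standard error of 0.11 and a 95% interval of 0.02 to 0.59 (limma, adjusted p = 0.118). Tirap (ENSMUSG00000032041, chromosome 9, 35095847 to 35111587), the sorting adaptor of TLR2 and TLR4, measured 7.07, 6.37 and 6.82 in WT against 8.56 and 10.1 in Cebpa_KO. The WT libraries lay close together, and both Cebpa_KO libraries lay above them. The log2 difference was 0.41 with a standard error of 0.14 and a 95% interval of 0.07 to 0.75 (limma, adjusted p = 0.0879). Neither gene passed under any of 15 alternatives, with adjusted p of 0.0616 to 0.396 for Myd88 and 0.0532 to 0.378 for Tirap. Tirap and the receptor gene Tlr2 that it serves had differences of opposite sign.

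The kinases of the MyD88 complex had small differences that did not pass. Irak4 (ENSMUSG00000059883, chromosome 15, 94441524 to 94479696), the kinase that MyD88 recruits first, measured 27.0, 26.5 and 28.4 in WT against 23.8 and 24.4 in Cebpa_KO. The spread within each group was small, 27.3 ± 1.02 (SD, n = 3) against 24.1 ± 0.425 (SD, n = 2), and the groups did not overlap. Its log2 difference was -0.17 with a 95% interval of -0.40 to 0.05 (limma, adjusted p = 0.223). Irak1 (ENSMUSG00000031392, chromosome X, 73057520 to 73067524), the substrate kinase of IRAK4, measured 130, 132 and 137 in WT against 109 and 125 in Cebpa_KO. Here too every WT library lay above both Cebpa_KO libraries, with a log2 difference of -0.18 and a 95% interval of -0.41 to 0.04 (limma, adjusted p = 0.20). The difference of Irak1 was -0.078 without Cebpa_KO replicate 1, -0.28 without replicate 2 and -0.10 on the level from coverage. For both kinases the interval reaches no further than 0.41 from 0 in either direction.

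Irak3 (ENSMUSG00000020227, chromosome 10, 119977553 to 120038035) encodes IRAK-M, an inhibitor of MyD88 signalling best known in macrophages. It measured 0.617, 0.592 and 1.39 in WT against 0.734 and 0.245 in Cebpa_KO, and was not tested, since only 1 library reached a TPM of 1. The high value of WT replicate 3 was not there in the level from coverage, with 0.617, 0.50 and 0.523 in WT against 0.564 and 0.245 in Cebpa_KO. Cebpa_KO replicate 2 was the lowest library on both scales. It also had the lowest sums of macrophage, B cell, plasma cell and plasmacytoid dendritic cell markers. Its neutrophil and conventional dendritic cell sums were not the lowest. The macrophage sum was highest in Cebpa_KO replicate 1, at 237, where Irak3 was not highest on either scale. The part of these cells in the values of Irak3 was not tested.

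**Figure D4:**
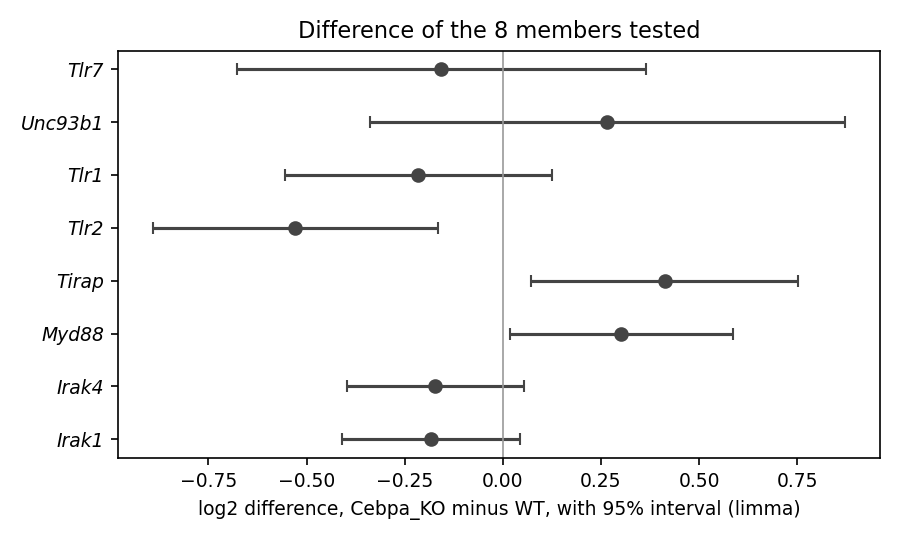
Difference of Cebpa_KO from WT in log2(scaled TPM + 1) (horizontal axis) for the 8 members tested by limma, as points with 95% intervals that are not adjusted for the number of genes. The intervals of Tlr2, Tirap and Myd88 leave out 0, and that of Unc93b1, from -0.34 to 0.87, is the widest.

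Promoter windows of RefSeq on GRCm38.p6 were matched by symbol for 8 of the 10 members, and Tlr7 and Unc93b1 had no entry. In the 250 bases before each of the 12 listed starts of these 8 genes, a C/EBP site written as TTGCNNAA was searched on both strands and found in 0 windows, while 9.56% of all 32851 windows hold it. The kappa B consensus is bound by the NF-kappa B factors that lie downstream of MyD88. It was found in 3 of the 12 windows, and 7.25% of all windows hold it. These are the window of Tlr2 and 2 overlapping windows of Irak1 that hold the same match. By gene, 2 of the 8 members hold it, against 2225 of 27025 genes. In Tlr2 there are 2 overlapping matches. A match is a run of letters, not a measured site, and no match says only that these letters are not in the window. Shown are 3 stretches of the windows that lie before every exon annotated there in GENCODE M21, 5′ to 3′ on the strand of the gene, with the kappa B match of Tlr2 in capitals (the other stretches hold none). Tlr2 was chosen for its difference, Myd88 as the shared adaptor and Tlr9 as the receptor without signal in WT.
Tlr2, chr3:83841768-83841858, minus strand: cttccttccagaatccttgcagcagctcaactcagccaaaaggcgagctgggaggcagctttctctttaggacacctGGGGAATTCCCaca
Myd88, chr9:119340042-119340268, minus strand: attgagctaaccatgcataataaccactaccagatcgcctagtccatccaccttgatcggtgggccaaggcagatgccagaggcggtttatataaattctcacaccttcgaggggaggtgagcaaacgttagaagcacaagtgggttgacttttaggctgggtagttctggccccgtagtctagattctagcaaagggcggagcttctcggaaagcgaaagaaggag
Tlr9, chr9:106222348-106222597, plus strand: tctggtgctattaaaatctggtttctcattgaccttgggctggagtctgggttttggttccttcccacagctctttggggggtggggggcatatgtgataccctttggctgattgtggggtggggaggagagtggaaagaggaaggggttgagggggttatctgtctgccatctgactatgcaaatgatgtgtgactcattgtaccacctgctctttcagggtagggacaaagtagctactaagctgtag

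Other genes of the pathway were taken from 6 lists with 68 genes in the tables, of which 59 were tested. Of these 6 rose and 7 fell in Cebpa_KO (limma, adjusted p under 0.05), where 9.93% of all genes rose and 9.82% fell. The other receptors were scarce. Of 9 listed, Tlr6 alone was tested, and Tlr4, the lipopolysaccharide receptor, measured 0.759, 0.915 and 0.957 in WT against 1.15 and 0.633 in Cebpa_KO. Tlr8, a second endosomal RNA receptor, was at 0.0881 or less in every library. Tlr3, the endosomal sensor of double-stranded RNA, lay between 0.264 and 0.595.

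Of the 13 calls 6 lay among genes that handle endosomal receptors and their ligands, where 1 of 16 tested genes rose and 5 fell. Of all tested genes 9.93% rose and 9.82% fell. The median log2 difference of the 16 genes of this list was -0.03. Ctsl, the endosomal protease cathepsin L, measured 25.6, 19.5 and 24.1 in WT against 6.61 and 6.73 in Cebpa_KO, a fall of 3.46 times in the mean (log2 difference -1.64, limma, adjusted p = 0.00643). Ctsb and Ctss, other cathepsins of the compartment, did not pass, with log2 differences of 0.03 and 0.11. The ribonuclease T2 genes Rnaset2a and Rnaset2b, whose enzyme cuts RNA in the lysosome into fragments that TLR7 can bind, were at 402 and 401 for Rnaset2a in Cebpa_KO against 628 to 719 in WT, with log2 differences of -0.76 and -0.74. They are near-identical copies that may share reads, so their separate values are uncertain. With the pair counted once, 1 of 15 genes of this list rose and 4 fell, and over all lists 6 of 58 rose and 6 fell. Pld3, an exonuclease of the same compartment, fell from 236, 237 and 284 to 162 and 163, and Ap3b1, a subunit of the AP-3 sorting complex, fell by 0.28 on the log2 scale. Hsp90b1, the chaperone gp96 that folds TLRs, rose from 176, 189 and 183 to 263 and 249. Slc15a4, the lysosomal transporter that TLR7 and TLR9 signalling needs, measured 19.8, 19.6 and 23.4 in WT against 21.4 and 17.1 in Cebpa_KO (limma, log2 difference -0.12, adjusted p = 0.589). Ap3b1 did not pass without WT replicate 1, and without WT replicate 2 only Ctsl, Rnaset2a and Rnaset2b of this list did. Without a filter on low values Pld3 did not pass, Ap3b1 did not pass with no intensity trend, and without either Cebpa_KO replicate none passed.

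Downstream of MyD88 1 of 19 tested genes rose and none fell, where 9.93% of all genes rose and 9.82% fell. Of the 19, 8 had an unadjusted p under 0.05, near the share of 37.6% of all genes. The list had a median of -0.09. Ube2n, the ubiquitin-conjugating enzyme that works with TRAF6, rose, with a log2 difference of 0.33 (limma, adjusted p = 0.0388). Traf6 itself measured 12.7, 14.9 and 16.7 in WT against 13.5 and 16.9 in Cebpa_KO. Irak2, a kinase related to IRAK1, measured 28.6, 33.2 and 39.5 in WT against 12.9 and 22.4 in Cebpa_KO, without overlap (log2 difference -0.93, limma, adjusted p = 0.0588). Irf7, the factor that switches on interferon genes below TLR7, measured 112, 80.2 and 74.1 in WT against 125 and 176 in Cebpa_KO (log2 difference 0.76, limma, adjusted p = 0.0729). Peli1, a ubiquitin ligase, had a difference of -0.40 (limma, adjusted p = 0.0539). The TRIF arm, which serves TLR3 and TLR4, held 1 rise, Ticam2, by 0.65, and 1 fall, Ikbke, a kinase of interferon induction, by 0.98, among 6 tested genes, whereas Ticam1 and Tbk1 had differences of -0.25 and -0.13. Ube2n, Ticam2 and Ikbke did not pass without WT replicate 1, without WT replicate 2 or without either Cebpa_KO replicate, and Ikbke did not pass without WT replicate 3 either. None of these 3 passed without a filter on low values, and Ube2n did not pass on unscaled TPM or with no intensity trend. Without Cebpa_KO replicate 1 the log2 difference of Irak2 was -0.55 and that of Ikbke -0.63, and on the level from coverage Irak2 passed at -0.58 (limma, adjusted p = 0.0478).

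Among 11 inhibitors of the pathway 1 rose and 1 fell, where 9.93% of all genes rose and 9.82% fell. Socs1, a suppressor of cytokine and TLR signalling, went from 32.0, 31.9 and 34.3 in WT to 60.5 and 56.1 in Cebpa_KO (log2 difference 0.81, limma, adjusted p = 0.00772). Sigirr, an inhibitory receptor of the IL-1 and TLR family, went from 88.0, 89.8 and 101.7 to 64.9 and 65.8 (log2 difference -0.50, limma, adjusted p = 0.0233). On the level from coverage its log2 difference was -0.27 (limma, adjusted p = 0.0410). Tnfaip3, the gene of the NF-kappa B inhibitor A20, was highest in WT replicate 3, the WT library with high stress genes, at 54.2, 62.5 and 226 in WT against 180 and 186 in Cebpa_KO (log2 difference 0.99, limma, adjusted p = 0.304). Tollip and Otud5 did not pass, with differences of -0.20 and -0.26. Of the 6 IL-1 family receptor genes that signal through MyD88, 2 rose, where 9.93% of all genes rose. In 4 of them the Cebpa_KO values lay above every WT value, as in 28.7% of all genes, and the median difference was 0.86. Il1r1 and Il1rap overlapped between the groups. Il1rl2, a chain of the IL-36 receptor, measured 2.72, 2.24 and 1.82 in WT against 5.84 and 6.61 in Cebpa_KO, and Il18r1, the IL-18 receptor chain, 5.74, 5.55 and 4.53 against 9.47 and 9.82 (limma, adjusted p = 0.0154 and 0.0252). On the level from coverage Il18r1 overlapped between the groups, with 4.34, 4.82 and 3.97 in WT against 4.75 and 8.67 in Cebpa_KO, and the call was lost (log2 difference 0.48, limma, adjusted p = 0.179). Il1rl1, the IL-33 receptor, and Il18rap had differences of 1.03 and 0.96 (limma, adjusted p = 0.0640 and 0.0988). Il1rl1 lay near the limit of the filter, at 0.192, 0.350 and 0.996 in WT against 1.51 and 2.59 in Cebpa_KO. Without WT replicate 2, and again without a filter on low values, Socs1 was the one call left among these inhibitors and receptors. Without either Cebpa_KO replicate none of the genes of the 6 lists passed. At an unadjusted p under 0.05 there were then 8 higher and 7 lower of 57 without replicate 1, where 10.4% and 12.2% of all genes were, and 5 higher and 9 lower of 57 without replicate 2, where 11.8% and 11.9% were. These shares are near those of all genes.

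**Figure D5:**
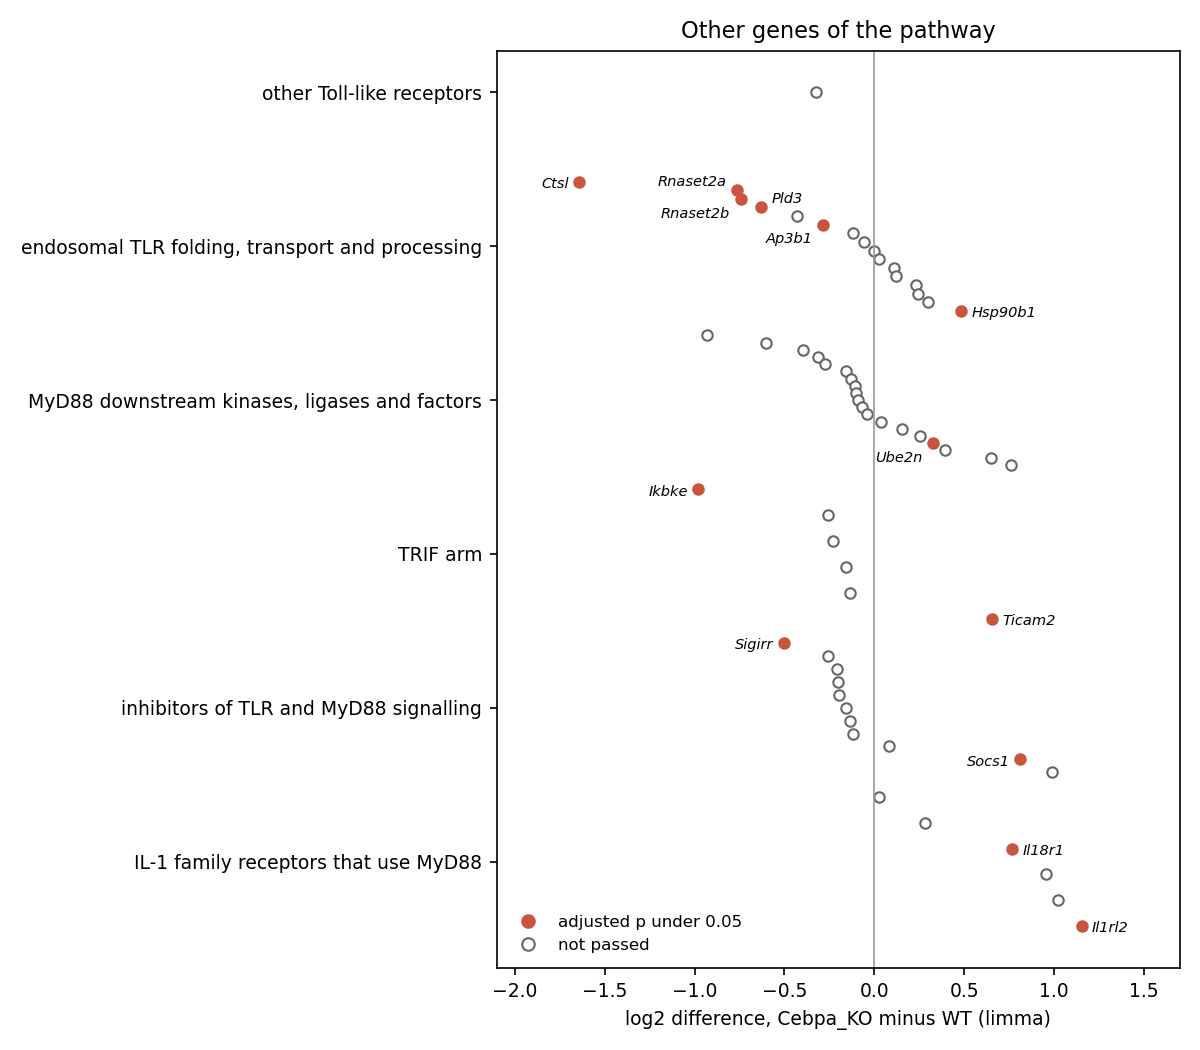
Log2 difference of Cebpa_KO from WT (horizontal axis) for the 59 tested genes of the 6 lists (1 row each), with filled and named points at an adjusted p under 0.05. Ctsl, at -1.64, lies furthest from 0, and Il1rl2, at 1.15, lies furthest on the positive side.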

How the data were processed

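Libraries were prepared with a low-input full-length cDNA kit and tagmentation, per the labels' protocols. Per the submitters' processing notes, STAR 2.7.11b and StringTie 2.1.3b were used with mm39. Which annotation release, read length and strandedness applied is not given in the sources used here. The TPM column deposited by the authors is treated as a score, because it holds each signal as annotated genes and again as assembled loci. Only annotated rows were used. FPKM and Coverage, a signal per base, deposited by the authors, gave the depth (their most frequent ratio, 6.76 to 7.08 gigabases aligned per library) and the level from coverage, an alternative added after seeing the data. The analysis had TPM rather than read counts, so no count model or counting interval was used.

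TPM was summed per gene ID and divided by median-ratio factors of 0.984 to 1.04. The 16254 genes that reached a TPM of 1 in 2 or more of the 5 libraries were compared by their log2(scaled TPM + 1), which understates the change of low genes, using limma 3.58.1 in R 4.3.3 (intensity trend, Benjamini-Hochberg adjustment, threshold 0.05), checked on simulated data. Tables were read with pandas 2.3.3. The members, the pathway and marker lists and the tests were chosen with earlier results of these data known. Named are all members, up to 4 genes of each pathway list with the smallest p, all that passed, Cebpa, and marker, sex-linked or stress genes beside a result. Tlr3, Tlr4, Tlr8, Ctsb, Ctss, Slc15a4, Pld4, Traf6, Tnfaip3, Il1r1 and Il1rap were named after their values were seen. The alternatives were 2 other pseudocounts, no filter, a higher filter, quantile normalization, TPM without scaling, a fit with no trend, array weights, a block for replicate number, and each library dropped in turn.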

Additional observations from a re-analysis of the deposited data

How the results depend on the processing

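Among the 8 tested members none passed in 12 of 15 alternatives, and Tlr2 was lower in 1 call each with array weights, no intensity trend and the level from coverage. Leaving out each library gave 0 to 0 members higher and 0 to 0 lower, with 0 to 10 pathway genes higher, 0 to 7 lower, 5 to 2177 of all genes higher and 18 to 1825 lower. A fit that leaves 1 Cebpa_KO library assumes that it varies like the WT libraries. Without a filter the calls were 2 pathway genes higher and 4 lower, and 930 of all genes higher and 629 lower. With array weights 10 pathway genes were higher, and 2575 of all genes were higher and 2440 lower. With the level from coverage 11 pathway genes were lower, and Il18r1 no longer passed. The cause of these shifts was not tested. The replicate numbers pair nothing in the labels, and same-numbered libraries deviated with correlations of -0.18 and 0.27. The fit with the replicate block gave 0 members, 7 pathway genes higher and 6 lower, and 1359 of all genes higher and 1050 lower. In it the calls of Ap3b1, Ube2n, Ticam2 and Il18r1 were lost. With each library left out, the log2 difference ran from -0.29 to 0.00020 for Tlr7, turning sign without WT replicate 1, and from -0.046 to 0.59 for Unc93b1, turning sign without Cebpa_KO replicate 1, and neither was a call. Over 32 named tested genes, 402 of the values under alternatives kept direction and side of the threshold, 56 lost a call and 14 gained one. No other scaling moved the median of all genes by over 0.1. The depth behind low genes such as Tlr9 and Irak3 is not given as reads, so no limit of detection can be set.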
